A study of Arabidopsis thaliana with 8 samples.

Results

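The chloroplast genome of Arabidopsis thaliana encodes part of the photosynthetic machinery, and the transcripts of these genes were followed in imbibed seeds. The genes were taken as the probe sets with 1 annotated gene, encoded in the plastid and with a symbol beginning with psa, psb, pet, ndh, atp or rbc. Mitochondrial atp genes were left out and no intensity filter was applied. This gave 43 probe sets for 43 genes, of 22746 probe sets in the array table and 13350 genes with a probe set of their own. They comprised 5 genes of photosystem I, 15 of photosystem II, 6 of the cytochrome b6f complex, 10 of the NDH complex, 6 of the ATP synthase and rbcL. The gene table listed 44 such symbols, and ndhB was the only one without a member, because its probe set listed both of its copies.

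Photosystem II and photosystem I carry out the light reactions in series, the cytochrome b6f complex passes electrons between them, and the ATP synthase uses the resulting proton gradient. The NDH complex returns electrons to the carrier pool around photosystem I, and rbcL encodes the large subunit of Rubisco, the enzyme that fixes CO2. Each complex also needs subunits encoded in the nucleus, many plastid genes are transcribed together in multi-gene units and then processed, and in a germinating seed the plastids are still undeveloped and gain photosynthetic function only later, in the light. Plastid messages are largely without poly(A) tails, whereas the array manufacturer's standard labelling starts at poly(A), so the intensities are relative readings for each probe set.

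The study was made on seeds of 35S-GSH1 plants, which overexpress GSH1 in the Columbia (Col-0) background, and on wild-type Col-0 seeds. Glutamate-cysteine ligase, the product of GSH1, starts the synthesis of glutathione, and 35S names a viral promoter active in most plant tissues. Imbibition lasted 24 h, at 4 °C, which the labels call vernalization, or at 22 °C, and the 4 groups so formed had 2 arrays each. The groups were 35S-GSH1 at 4 °C, 35S-GSH1 at 22 °C, Col-0 at 4 °C and Col-0 at 22 °C. Age of the seeds, light during imbibition and the number of transgenic lines were not stated in the labels, and no label says that replicates were separate seed lots, so p-values measure only the spread between these arrays. No probe set was paired with GSH1, so only the label gives an array its genotype.

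The 8 single-colour arrays had median deposited intensities of 12.3 to 16.2, and all values below are intensities after quantile normalization. Of the markers chosen for the tissue, the seed oil-body gene OLEO3 read 478 to 779 on the 8 arrays and the leaf gene RCA, Rubisco activase, read 19.6 to 36.3. These were 1 of 21 seed names and 1 of 8 green-leaf names with a probe set of their own, and none of 9 endosperm names had one. Some names in these lists are synonyms of the same gene. BAN, the only one of 11 seed coat names measured, read 0.438 to 7.17, and was highest on a Col-0 22 °C array. In RNA from whole seeds, fewer cells of a type and less RNA per cell cannot be told apart.

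The first comparison asked which plastid photosynthesis transcripts differed between seeds imbibed at 4 °C and at 22 °C. Of the 43 genes, 4 rose at 4 °C over both genotypes and none fell, by limma with Benjamini-Hochberg adjustment over all probe sets at a threshold of 0.05. The 4 were psaB and psaI of photosystem I and ndhI and ndhD of the NDH complex. Over all probe sets, 3.96% rose and 3.64% fell. The median log2 difference of the members was -0.04, and 23 of 43 lay below 0. In 35S-GSH1 seeds 2 genes rose and none fell, where 1.13% of all probe sets rose and 1.21% fell, and in Col-0 seeds 2 rose and none fell, where the shares of all probe sets were 1.39% and 1.43%. The 2 genes were psaB and ndhI in both genotypes.

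Of these 4 genes, the largest difference over both genotypes was that of psaB (probe set 245006_at), one of the paired core proteins that hold the reaction centre of photosystem I. Its intensity was 380 and 378 in 35S-GSH1 seeds at 4 °C, against 143 and 126 in 35S-GSH1 seeds at 22 °C. In Col-0 seeds it was 776 and 401 at 4 °C, against 281 and 212 at 22 °C. Both 4 °C arrays were therefore above both 22 °C arrays in each genotype. The log2 difference was 1.49 in 35S-GSH1 (SE 0.252, limma adjusted p = 0.0102), 1.19 in Col-0 (SE 0.252, limma adjusted p = 0.0279) and 1.34 over both (SE 0.178, limma adjusted p = 0.000808), a 2.53-fold difference.

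The small photosystem I subunit psaI (245017_at) read 56.9 and 59.0 in 35S-GSH1 seeds at 4 °C, against 42.0 and 42.9 at 22 °C. In Col-0 seeds it read 106 and 91.2 at 4 °C, against 48.8 and 67.2 at 22 °C. Its 4 °C arrays were the higher ones in each genotype, and over both it rose by 0.60 (SE 0.150, limma adjusted p = 0.0298). Within single genotypes no call was made, with log2 differences of 0.44 in 35S-GSH1 and 0.77 in Col-0 (limma adjusted p = 0.404 and 0.0881). This call was lost without any 1 of 7 arrays, with limma adjusted p between 0.0606 and 0.117, and was kept without Col-0 22 °C replicate 2.

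The other 3 photosystem I genes gave no call. psaA, which encodes the partner of the psaB protein, read 6.25 and 19.2 in 35S-GSH1 at 4 °C, against 20.9 and 14.1 at 22 °C, and in Col-0 21.7 and 16.3 at 4 °C, against 16.1 and 10.5 at 22 °C. Its groups overlapped in 35S-GSH1 and not in Col-0, and the log2 difference over both genotypes was -0.04 with a 95% interval of -0.88 to 0.79. psaC, which carries the terminal iron-sulfur clusters, differed by -0.02 (SE 0.373), and the small subunit psaJ by -0.15 (SE 0.108). The readings of psaA and psaC, from 6.25 to 28.9, lay near the medians of the arrays.

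**Figure D1:**
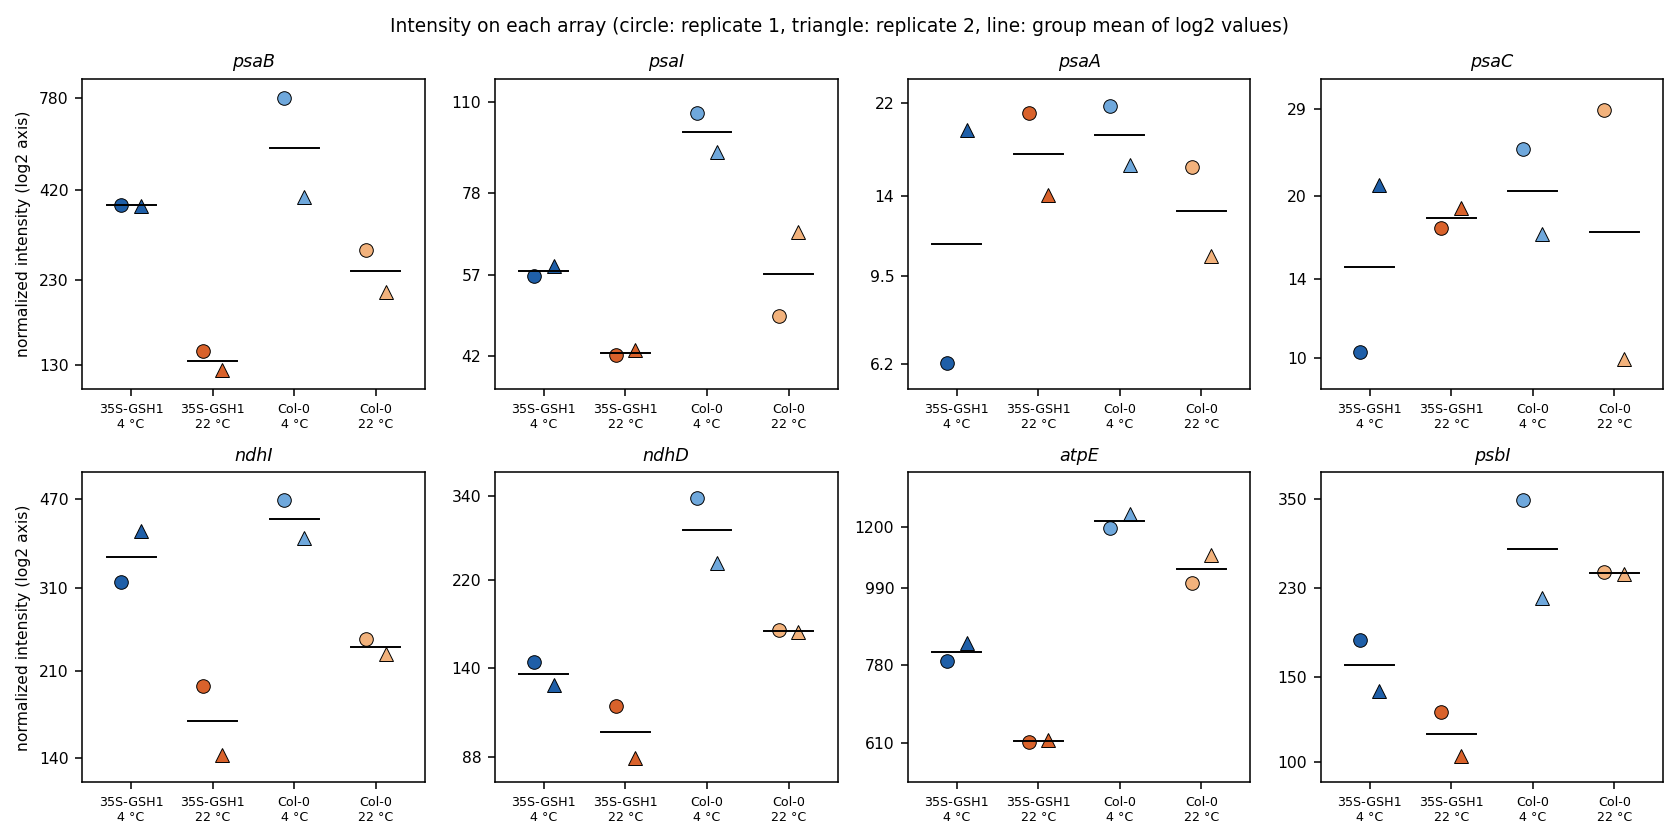
Normalized intensity (log2 axis, a scale of its own in each panel) of 8 genes on each array, with circles for replicate 1, triangles for replicate 2 and a line at each group's mean of log2 values. The 4 °C arrays of psaB, psaI, ndhI, ndhD and atpE lie above the 22 °C arrays within each genotype, while those of psaC overlap.

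In the NDH complex, ndhI (244935_at) encodes a subunit with iron-sulfur clusters in the arm that receives electrons. It read 319 and 405 in 35S-GSH1 seeds at 4 °C, against 196 and 142 at 22 °C, and 467 and 391 in Col-0 seeds at 4 °C, against 244 and 228 at 22 °C. Every 4 °C array was above every 22 °C array, in either genotype. The log2 difference was 1.1 in 35S-GSH1 (SE 0.184, limma adjusted p = 0.00951), 0.85 in Col-0 (SE 0.184, limma adjusted p = 0.0303) and 0.98 over both (SE 0.130, limma adjusted p = 0.000808).

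The psaB and ndhI calls over both genotypes held without each of the 8 arrays in turn and ended only when the moderation ignored the intensity trend (limma adjusted p = 0.0876 and 0.0877). The calls within 1 genotype were less secure. In 35S-GSH1, psaB was lost without each of the 4 arrays of 35S-GSH1 (limma adjusted p of 0.0872 to 0.112), and ndhI without 35S-GSH1 22 °C replicate 2 or 35S-GSH1 4 °C replicate 2 (limma adjusted p = 0.109 and 0.134). In Col-0, psaB was kept only without Col-0 4 °C replicate 2 and otherwise lost (limma adjusted p of 0.0529 to 0.179), and ndhI was lost without each of the 4 arrays of Col-0 (limma adjusted p of 0.0798 to 0.214).

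The membrane subunit ndhD (244962_at) read 144 and 128 in 35S-GSH1 at 4 °C, against 115 and 87.7 at 22 °C. In Col-0 it read 338 and 241 at 4 °C, against 170 and 168 at 22 °C. Here too the temperatures did not overlap within a genotype, and ndhD rose by 0.59 over both (SE 0.135, limma adjusted p = 0.0199). The call was lost without any 1 of 6 arrays, with limma adjusted p between 0.0501 and 0.0883, and was kept without 35S-GSH1 22 °C replicate 1 or Col-0 4 °C replicate 2.

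ndhA, a membrane subunit that joins the arm, was the other NDH gene whose 4 °C arrays were above the 22 °C arrays in each genotype. It read 28.5 and 36.4 in 35S-GSH1 at 4 °C, against 23.3 and 25.7 at 22 °C, and 47.5 and 49.3 in Col-0 at 4 °C, against 35.3 and 13.2 at 22 °C. The difference over both was 0.75 (SE 0.278) and did not pass (limma adjusted p = 0.145). Without replicate 1 of Col-0 at 22 °C it was 1.09 and passed over both (limma adjusted p = 0.0225), and it was 1.79 and passed in Col-0 (limma adjusted p = 0.0486). The remaining 7 NDH genes ran from -0.79 for ndhG to 0.31 for ndhJ. Of these, ndhF and ndhH read below 10 on all arrays, with differences of -0.17 and -0.24 and SEs of 0.578 and 0.521.

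None of the 15 photosystem II genes passed in either genotype or over both with all 8 arrays in the fit. psbA, which encodes the reaction-centre protein with the fastest turnover in light, read 164 and 149 in 35S-GSH1 at 4 °C, against 114 and 93.8 at 22 °C, and 238 and 126 in Col-0 at 4 °C, against 217 and 99.6 at 22 °C. Its temperature groups overlapped in Col-0, and the difference over both was 0.41 (SE 0.237, limma adjusted p = 0.382). Its partner psbD differed by -0.34 (SE 0.341) and the inner antenna genes psbB and psbC by -0.93 (SE 0.479) and 0.24 (SE 0.470). psbB read 4.3 and 18.3 in 35S-GSH1 at 4 °C, against 33.8 and 29.3 at 22 °C, but 24.5 and 9.91 in Col-0 at 4 °C, against 31.1 and 10.1 at 22 °C.

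The 10 small-subunit and assembly genes psbE, psbF, psbH, psbI, psbJ, psbK, psbL, psbN, psbT and psbZ ran from -0.62 for psbT to 0.31 for psbI.

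The value of psbM, a small subunit at the dimer interface of photosystem II, turned on the arrays of 35S-GSH1 at 22 °C. It read 1172 and 801 in 35S-GSH1 at 4 °C, against 2153 and 363 at 22 °C, and 2468 and 1763 in Col-0 at 4 °C, against 877 and 817 at 22 °C. The values of 35S-GSH1 at 22 °C were the lowest and the second highest of the 8. The difference over both genotypes was 0.72 (SE 0.402, limma adjusted p = 0.370). Without 35S-GSH1 22 °C replicate 1 it was 1.36 and passed (limma adjusted p = 0.00276), and without replicate 2 it was 0.0745 and did not (limma adjusted p = 0.884). In Col-0 alone the difference was 1.3, the largest of the 43 genes there, and did not pass (limma adjusted p = 0.300). It passed when only the Col-0 arrays were fitted (limma adjusted p = 0.0329) and without either 35S-GSH1 22 °C array (limma adjusted p = 0.0196 and 0.0214).

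In the cytochrome b6f complex no gene passed with the 4 groups alone in the fit of all arrays. petA, which encodes cytochrome f, differed by 0.49 over both genotypes (SE 0.210, limma adjusted p = 0.221). With the replicate number, which the labels do not call a shared batch, added to the fit, petA passed over both genotypes (limma adjusted p = 0.0391). Without single arrays it ran from 0.21 to 0.76, and the highest value, without Col-0 4 °C replicate 2, passed (limma adjusted p = 0.0210). The difference was 0.45 for petB, the cytochrome b6 gene (SE 0.165, limma adjusted p = 0.144). petD, the gene for subunit IV, differed by -0.20 (SE 0.327). The small-subunit genes petG, petL and petN all lay below 0, at -0.46, -0.30 and -0.38, with adjusted p of 0.498 to 0.699 by limma.

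With the 4 groups alone in the fit of all 8 arrays, no ATP synthase gene passed either. atpE, the epsilon subunit of the catalytic head, read 788 and 834 in 35S-GSH1 at 4 °C, against 613 and 616 at 22 °C, and 1197 and 1248 in Col-0 at 4 °C, against 1007 and 1098 at 22 °C. These groups did not overlap, and the difference of 0.31 (SE 0.0993) had a limma adjusted p of 0.0909. The catalytic-head genes atpA and atpB differed by 0.48 and 0.54 (SE 0.234 and 0.204). Without single arrays atpA ran from 0.22 to 0.73 with no call, and atpB from 0.26 to 0.82, where it passed without 35S-GSH1 4 °C replicate 1 (limma adjusted p = 0.0110). With the replicate number added to the fit, atpA, atpB and atpE passed over both genotypes (limma adjusted p = 0.0116, 0.0227 and 0.0394). In that fit atpA also passed in Col-0 (limma adjusted p = 0.0149). The labels do not say that this number marks a shared batch. The membrane-part genes atpF, atpH and atpI differed by -0.21, -0.32 and -1.39 (SE 0.212, 0.159 and 0.503). atpI was the only member with both 4 °C arrays below both 22 °C arrays in each genotype, at 2.25 and 5.16 against 11.1 and 8.43 in 35S-GSH1 and 0.550 and 2.90 against 6.26 and 5.83 in Col-0. These readings are among the lowest of the 43, and the difference did not pass (limma adjusted p = 0.136).

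rbcL read 17.6 and 28.9 in 35S-GSH1 at 4 °C, against 47.6 and 21.7 at 22 °C, and 25.6 and 22.2 in Col-0 at 4 °C, against 34.2 and 27.4 at 22 °C. Its groups overlapped in 35S-GSH1, and the difference over both was -0.42 with a 95% interval of -1.04 to 0.19.

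In all, 6 members (psaB, psaI, ndhI, ndhD, ndhA and atpE) had both 4 °C arrays above both 22 °C arrays in each genotype, which held for 9.25% of all probe sets. atpI was the 1 member with the opposite order, which held for 9.28% of all probe sets. Set beside each other, the complexes differed little in their medians. The median log2 difference over both genotypes was -0.02 for photosystem I, 0.07 for photosystem II, -0.25 for cytochrome b6f, -0.07 for NDH, 0.05 for the ATP synthase and -0.42 for rbcL, against -0.00 over all probe sets. Photosystem I ran from -0.15 to 1.34 and NDH from -0.79 to 0.98, so the spread within each of these complexes was wider than the spread between the medians. Between genotypes the photosystem I median was -0.16 in 35S-GSH1 and 0.50 in Col-0, and without 35S-GSH1 4 °C replicate 1 that of 35S-GSH1 was 0.20.

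**Figure D2:**
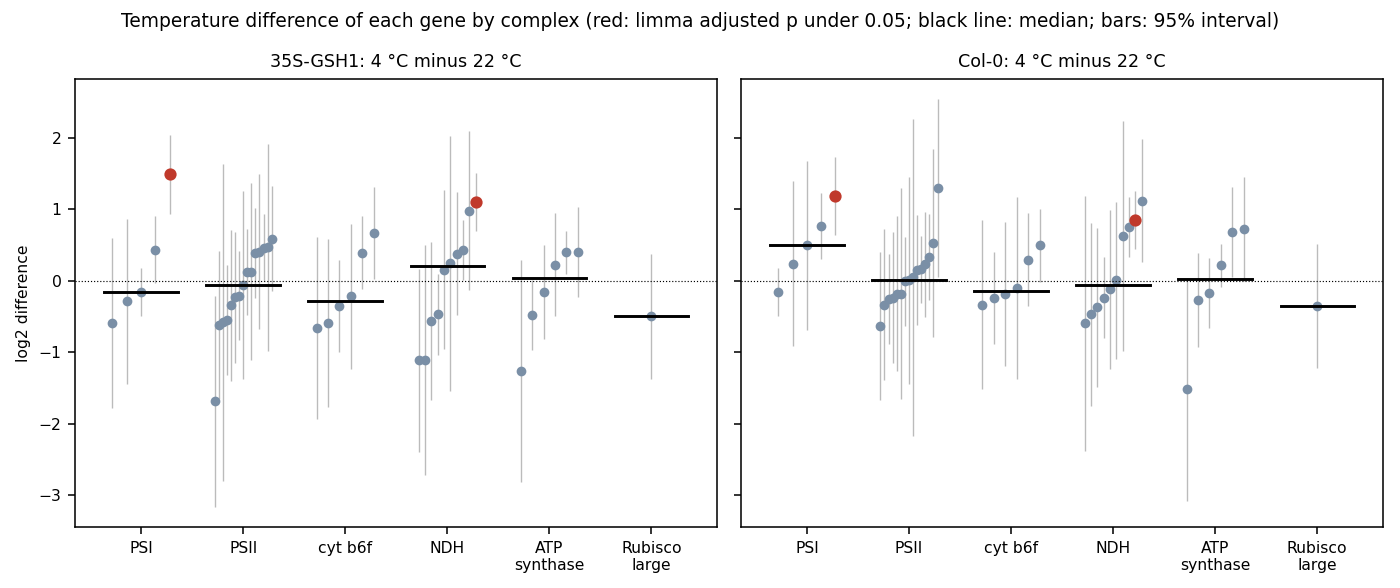
Log2 difference between 4 °C and 22 °C of each of the 43 genes, sorted within its complex, in 35S-GSH1 (left) and Col-0 (right), with 95% intervals, medians as black lines and genes with a limma adjusted p under 0.05 in red. psaB and ndhI are the red points in both panels, and the medians lie between -0.50 and 0.50.

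The difference of the members in 35S-GSH1 and in Col-0 comes from separate arrays. Of the 43 genes, 15 were above 0 in both genotypes, 16 below 0 in both and 12 opposite, and across the genes, which share arrays and are not independent, Pearson's r was 0.51 and Spearman's rho 0.46. Across all probe sets r was 0.24. The interaction takes the temperature effect of Col-0 from that of 35S-GSH1, and by limma it passed in none of the 43 genes and in 0% of all probe sets. At an unadjusted p under 0.05 it counted 0 members, against 4.11% of all probe sets. For psaB it was 0.30 (SE 0.357) and for ndhI 0.25 (SE 0.261), and the half-width of the 95% interval over the members ran from 0.434 for atpE to 3.14 for psbN, with a median of 1.23. An estimated difference between the genotypes smaller than a gene's own half-width could not reach an unadjusted limma p under 0.05. These intervals are not adjusted for the number of probe sets, so a difference had to be larger still to pass.

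Members that are known to be transcribed together were next set in the order of 9 transcription units, which hold 32 of the 43 genes. The estimated temperature differences of neighbours were often unlike in value, but intervals were set against each other only for psaB and psaA. psaB stood at 1.34 and its upstream neighbour psaA at -0.04, and their 95% intervals of 0.95 to 1.73 and -0.88 to 0.79 did not overlap. The unit from ndhH to ndhD also holds psaC, and in it ndhA, ndhI and ndhD stood at 0.75, 0.98 and 0.59. The genes between and around them, ndhH, ndhG, ndhE and psaC, stood at -0.24, -0.79, 0.02 and -0.02. Likewise petB and petD of the psbB unit gave 0.45 and -0.20, while in the unit from atpI to atpA the values ran from -1.39 for the first gene to 0.48 for the last. atpB and atpE, which share a unit, gave 0.54 and 0.31. Probe sets of these genes differ in brightness, and the part of low readings in the unlike values was not tested.

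**Figure D3:**
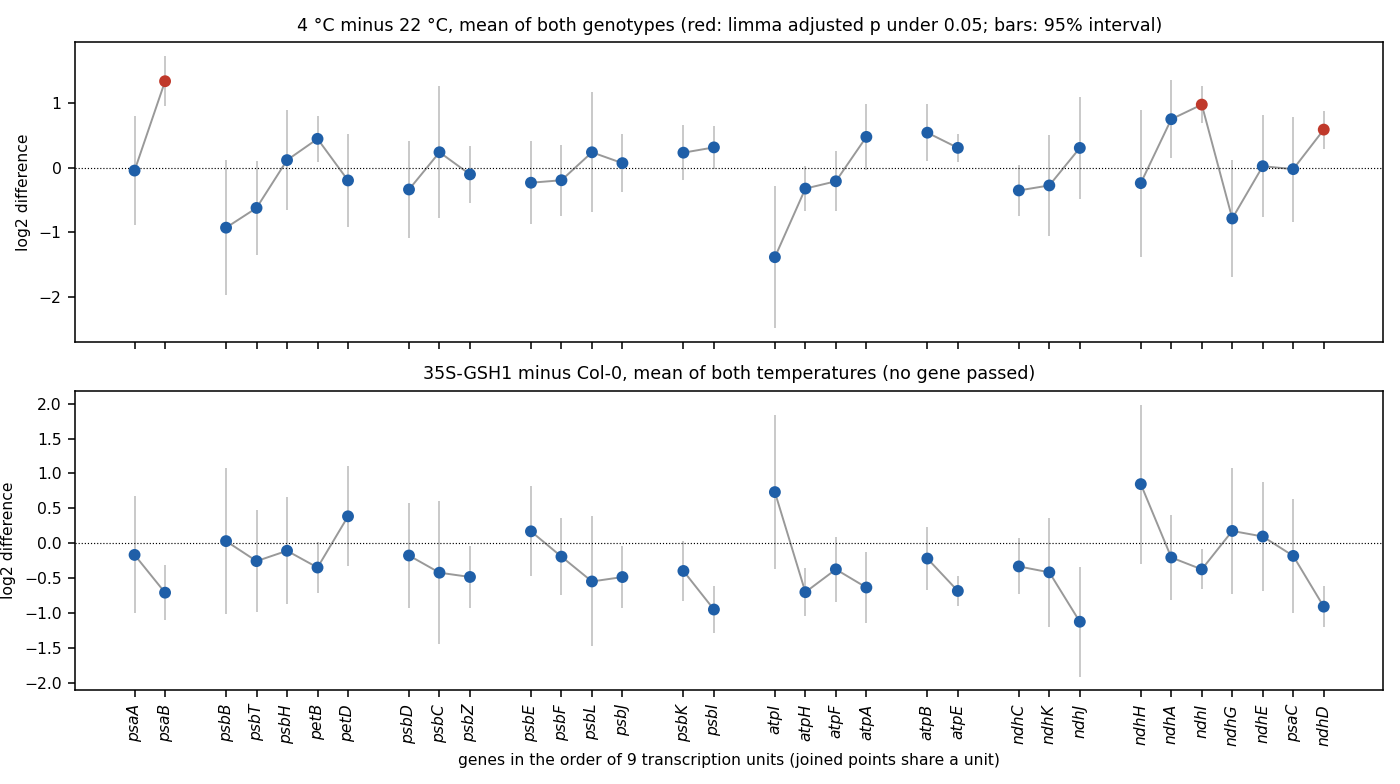
Log2 differences with 95% intervals of 32 genes in the order of their transcription units (joined points share a unit), for temperature over both genotypes (top, red for a limma adjusted p under 0.05) and genotype over both temperatures (bottom). In the top panel psaB lies 1.34 above 0 beside psaA at -0.04, and in the bottom panel most points lie below 0.

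The second comparison set 35S-GSH1 seeds against Col-0 seeds. With the 4 groups alone in the fit, no member passed at 4 °C, at 22 °C or over both temperatures by limma. In each of the 3 contrasts 0% of all probe sets passed. At an unadjusted p under 0.05, 9 members were lower and 0 higher in 35S-GSH1 at 4 °C, where the shares of all probe sets were 1.98% lower and 1.98% higher. At 22 °C 11 were lower and 1, ndhH, was higher, where the shares were 2.79% and 2.99%. Over both temperatures, a contrast added after the data were seen, 14 were lower and 0 higher, where the shares were 2.66% and 2.53%.

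Most members lay below 0. At 4 °C 37 of 43 did, with a median log2 difference of -0.45, and at 22 °C 28 of 43 did, with a median of -0.26, where 11378 and 11295 of the 22746 probe sets were below 0. The 22 °C median was 0.05 when replicate 1 of Col-0 at 22 °C was left out and -0.51 when replicate 2 was, and the 4 °C median was -0.12 when replicate 1 of Col-0 at 4 °C was left out. The medians at both temperatures were below 0 on the deposited scale and after centring each array, at -0.41 and -0.41 at 4 °C and at -0.29 and -0.22 at 22 °C. The 4 °C and the 22 °C contrast use separate arrays: 26 members (60.5%) were below 0 in both, 4 above 0 in both and 13 opposite. Of all probe sets, 25.7% were below 0 in both. Within each contrast the members share arrays and are not independent, so these counts are a description.

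In 9 genes both 35S-GSH1 arrays were below both Col-0 arrays at each temperature, which held for 2.89% of all probe sets, and the opposite order held for 0 members and 2.99% of all probe sets. The 9 were psaB, psaI and psaJ of photosystem I, psbI of photosystem II, petL of cytochrome b6f, ndhD of NDH, and atpE, atpF and atpH of the ATP synthase. The ATP synthase gene atpE read 788 and 834 in 35S-GSH1 against 1197 and 1248 in Col-0 at 4 °C, and 613 and 616 in 35S-GSH1 against 1007 and 1098 in Col-0 at 22 °C. The replicates of this gene stood close together and the genotypes apart. Its log2 difference was -0.59 at 4 °C, -0.77 at 22 °C and -0.68 over both (SE 0.0993). The limma adjusted p over both was 0.143.

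ndhD showed the genotypes in the same order, with 144 and 128 in 35S-GSH1 against 338 and 241 in Col-0 at 4 °C, and 115 and 87.7 against 170 and 168 at 22 °C. Its difference was -0.91 over both (SE 0.135, limma adjusted p = 0.143). The small photosystem II subunit psbI read 179 and 140 in 35S-GSH1 against 350 and 219 in Col-0 at 4 °C, and 127 and 103 in 35S-GSH1 against 248 and 246 in Col-0 at 22 °C, with a difference of -0.95 (SE 0.153, limma adjusted p = 0.187). In these 3 genes the genotypes did not overlap at either temperature. With the 4 groups alone in the fit, none passed the adjustment over 22746 probe sets. With the replicate number added to the fit, atpE, ndhD and psbI passed (limma adjusted p = 0.0230, 0.0193 and 0.0193). The labels do not say that this number marks a shared batch. psaB, which rose at 4 °C, differed by -0.71 between the genotypes (SE 0.178, limma adjusted p = 0.788). atpH, which encodes the ring subunit of the membrane part, differed by -0.70 (SE 0.159) and psaJ by -0.54 (SE 0.108). For this comparison atpE, psbI, atpH and psaJ were picked after the data were seen, by their small limma p over both temperatures.

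The core proteins of photosystem II lay outside this group of 9. Over both temperatures psbA differed by -0.33 (SE 0.237), psbD by -0.17 (SE 0.341), psbB by 0.03 (SE 0.479) and psbC by -0.42 (SE 0.470). rbcL differed by -0.00, with a 95% interval of -0.62 to 0.61. In cytochrome b6f, petL, one of the 9, differed by -0.82 (SE 0.209), petA by -0.67 (SE 0.210) and petB by -0.35 (SE 0.165), while petD, petG and petN lay above 0 at 0.39, 0.11 and 0.24. The most negative value was that of ndhJ, an arm subunit of NDH singled out after its values were seen, at -1.12 (SE 0.361, limma adjusted p = 0.928). It read 10.9 and 12.8 in 35S-GSH1 against 21.4 and 12.6 in Col-0 at 4 °C, and 3.79 and 7.81 in 35S-GSH1 against 23.5 and 19.8 in Col-0 at 22 °C, so that the genotypes overlapped at 4 °C. The positive end was held by ndhH at 0.85 (SE 0.521) and atpI at 0.73 (SE 0.503), both with readings below 12 on all arrays.

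The median log2 intensity of the same genes on each array shows the complexes over the 4 groups. For photosystem I it was 5.86 and 5.91 in 35S-GSH1 at 4 °C, 5.43 and 5.46 in 35S-GSH1 at 22 °C, 6.74 and 6.53 in Col-0 at 4 °C, and 5.64 and 6.09 in Col-0 at 22 °C. For the ATP synthase it was 6.44 and 6.47, 6.79 and 6.36, 7.37 and 7.27, and 7.28 and 6.80 in the same order of groups. Both medians were lower in 35S-GSH1 than in Col-0 at each temperature on all arrays, though for the ATP synthase at 22 °C only by 6.791 against 6.796. The photosystem I median was the value of the single gene psaI on every array. At 22 °C psaA and psaC were higher in 35S-GSH1, with log2 differences of 0.38 and 0.08. In the ATP synthase, atpI was higher in 35S-GSH1 by 0.86 at 4 °C and 0.60 at 22 °C. Photosystem II gave 5.99 and 5.62, 6.09 and 5.50, 6.88 and 5.84, and 6.33 and 5.84, where the genotypes overlapped at each temperature. The replicates of a group lay further apart than the genotypes at 22 °C, and at 4 °C those of Col-0 did. For NDH and cytochrome b6f the genotypes overlapped at both temperatures, with 3.59 to 4.58 in 35S-GSH1 and 3.85 to 4.75 in Col-0 for NDH, and 4.91 to 5.34 and 4.90 to 5.98 for cytochrome b6f.

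By complex, the medians over both temperatures were -0.54 for photosystem I, -0.40 for photosystem II, -0.12 for cytochrome b6f, -0.27 for NDH and -0.50 for the ATP synthase, with all 5 photosystem I genes, 13 of 15 photosystem II genes, 3 of 6 cytochrome b6f genes, 6 of 10 NDH genes and 5 of 6 ATP synthase genes below 0. At 4 °C the medians ran from -0.56 for photosystem I to -0.22 for cytochrome b6f, and at 22 °C from -0.42 for photosystem I to -0.03 for cytochrome b6f. The sign of the cytochrome b6f median depended on single arrays. At 4 °C it was 0.13 when replicate 1 of 35S-GSH1 was left out and 0.15 when that of Col-0 was. At 22 °C it was 0.19 when replicate 1 of Col-0 was left out, -0.54 when replicate 2 was, and 0.01 after centring each array. No test was made between complexes, since their members are not replicates.

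**Figure D4:**
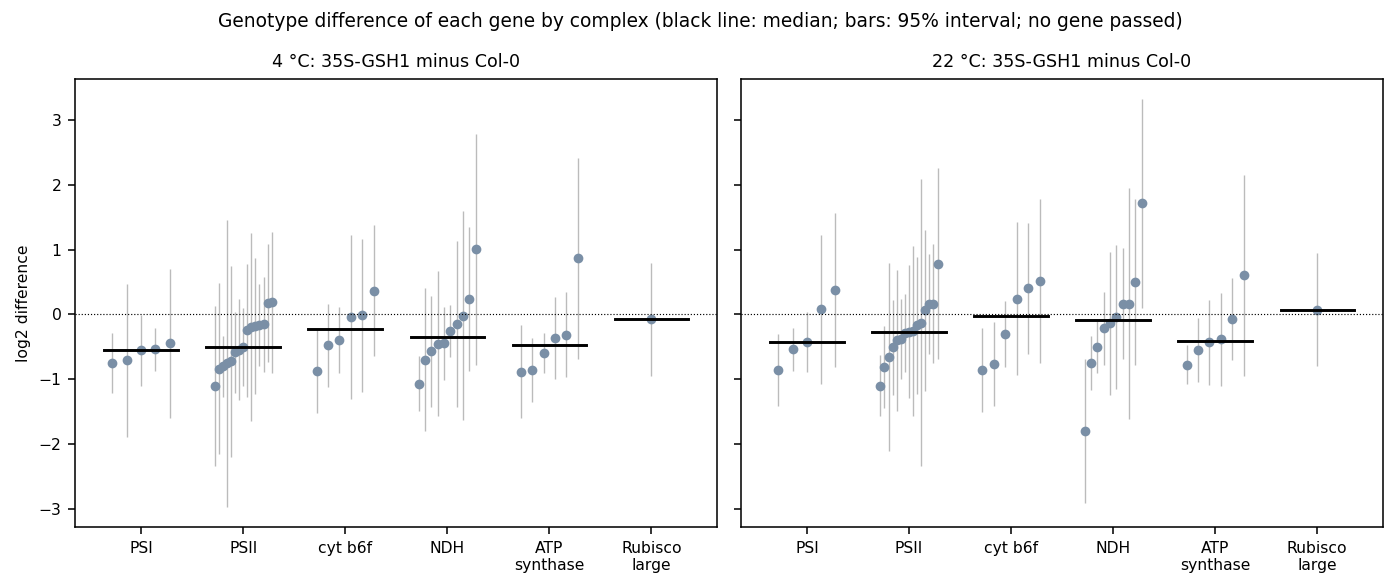
Log2 difference between 35S-GSH1 and Col-0 of each of the 43 genes, sorted within its complex, at 4 °C (left) and 22 °C (right), with 95% intervals and medians as black lines. No gene had a limma adjusted p under 0.05, and at 4 °C 37 of the 43 points lie below 0.

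Replicate arrays of a group differed in a way that ran through several of these genes. In 14 of 43 genes replicate 1 read higher than replicate 2 in all 4 groups, which held for 8.98% of all probe sets, and in 3 (ndhF, atpB and atpE) it read lower in all 4, which held for 9.37%. The 14 included 8 of the 15 photosystem II genes, and for psbC and psbL the median ratio of replicate 1 to replicate 2 was 2.60. psbC read 162 and 62.5 in 35S-GSH1 at 4 °C, 118 and 44.3 in 35S-GSH1 at 22 °C, 234 and 56.1 in Col-0 at 4 °C, and 183 and 71.2 in Col-0 at 22 °C. Replicate 1 was the higher in each group, by more than the groups differed in their means. Of 21 probe sets of 14 mitochondrion-encoded respiratory genes, 17 also read higher on replicate 1 in all 4 groups.

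**Figure D5:**
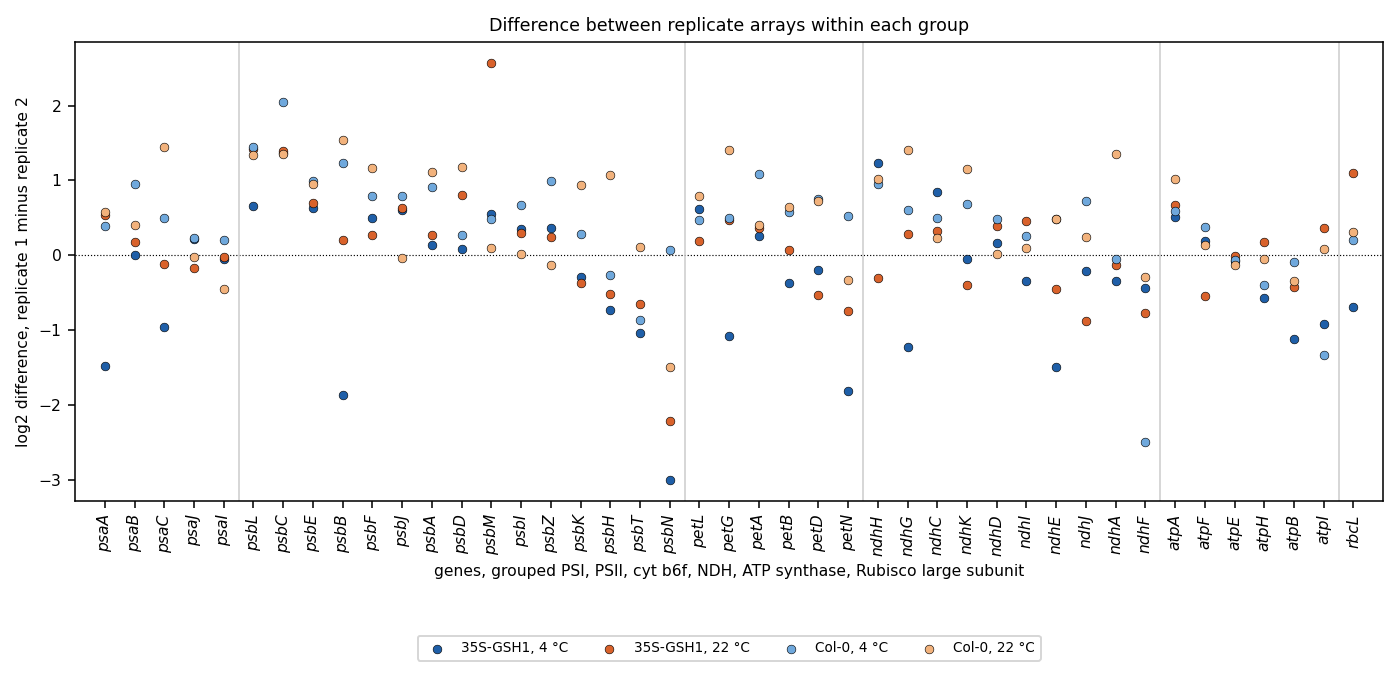
Log2 difference between replicate 1 and replicate 2 in each of the 4 groups for each of the 43 genes, ordered within their complexes by the median over groups. psbL, psbC, psbE and psbF lie above 0 in all 4 groups, and psbM shows 1 point apart, that of 35S-GSH1 at 22 °C.

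The other plastid-encoded genes were described for comparison, with ribosomal proteins, RNA polymerase subunits and the maturase among them. Of 26 such genes, 5 rose at 4 °C over both genotypes and none fell, where 3.96% of all probe sets rose and 3.64% fell. These were matK, a maturase for intron splicing (1.19), rpoC1, an RNA polymerase subunit (0.98), and the ribosomal protein genes rps19, rps2 and rps4 (0.78, 0.61 and 0.59). Their limma adjusted p ran from 0.00279 to 0.0262. The median of the 26 was 0.23. Between genotypes 20 of the 26 lay below 0 over both temperatures, where 11230 of the 22746 probe sets did, and the median was -0.46. In 8 of the 26 both 35S-GSH1 arrays were below both Col-0 arrays at each temperature, which held for 2.89% of all probe sets. Lower readings in 35S-GSH1 were therefore also present in plastid genes outside photosynthesis. Of the 21 mitochondrial probe sets none passed in either comparison, their median was -0.30 for temperature and -0.02 for genotype over both temperatures, and in none were the genotypes apart in this way. Their genotype medians had opposite signs at the 2 temperatures. At 4 °C 17 of the 21 lay above 0, where 11366 of the 22746 probe sets did, and the median was 0.17. At 22 °C 19 of the 21 lay below 0, where 11295 of the 22746 probe sets did. The median of the 21 there was -0.26, that of the photosynthesis genes too, so lower readings at 22 °C were also present in mitochondrial genes.

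Nuclear genes for photosynthesis were few on the named part of the array, at 14 genes for 88 names with synonyms. Of these, LHCB4.1, a minor antenna protein of photosystem II, rose at 4 °C over both genotypes by 0.53 (SE 0.0996, limma adjusted p = 0.00675), and the other 13 gave no call. It read 405 and 371 in 35S-GSH1 at 4 °C, against 267 and 269 at 22 °C, and 349 and 358 in Col-0 at 4 °C, against 225 and 267 at 22 °C. Its 4 °C arrays were above the 22 °C arrays in both genotypes, and the median of the 14 was 0.01. None of 9 measured genes for plastid transcription and RNA processing factors, from 76 names with synonyms, passed in any contrast. All 9 were above 0 at 4 °C over both genotypes, from 0.000386 to 1.18 with a median of 0.32. Of the 22746 probe sets 11340 were above 0. Within single genotypes 6 of the 9 were above 0 in Col-0 and 7 in 35S-GSH1.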

How the data were processed

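Total RNA from imbibed seeds was labelled with biotin and hybridised to 8 single-colour Affymetrix arrays, per the labels' protocols. The authors deposited probe-set intensity values on a linear scale, without detection calls. The submitters' processing notes name GCOS, with no version, algorithm or scaling. The 2% trimmed means of the arrays lay up to 9.71% from their median, above a tolerance of 5%, so arrays were quantile normalized, which hides a shift of most transcripts.

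Values were analysed as log2(intensity + 1), so differences of dim probe sets are understated. limma 3.58.1 in R 4.3.3 fitted 4 groups to 8 arrays (4 residual and 7.75 prior degrees of freedom, trended moderation), two-sided, with Benjamini-Hochberg adjustment over 22746 probe sets. Of 7 contrasts, 35S-GSH1 against Col-0 over both temperatures was added after the data were seen. A fold is 2 to the power of the log2 difference.

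Genes were named by a table with 1 gene for 13513 probe sets, several for 503 and none for 8730. 13436 were matched to RefSeq TAIR10.1 and 77 were not, and its plastid and mitochondrial labels were used without coordinates. Each member had 1 probe set, and 39 of 43 were at or above the 40th percentile of mean values, a log2 value of 2.86, below which were atpI, psbN, ndhF and ndhH. Genes named were 16 core subunits, every member past the threshold, and the largest and smallest difference per complex and temperature contrast. For genotype, the members with the smallest limma p over both temperatures were added after the data were seen, among them atpE, psbI, psaJ and atpH. Members, lists and transcription units were chosen with earlier results of these data known. The fit was tested on simulated data. The number of arrays limits the precision.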

Additional observations from a re-analysis of the deposited data

How the results depend on the processing

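With 2 arrays per group, leaving out an array leaves a lone array, whose spread was taken from the other groups. The count of members past the threshold at 4 °C against 22 °C was 2 in Col-0 and became 4 on the deposited scale, 1 after centring each array on its median, 0 with a pseudocount of 16, 4 with a filter at the 40th percentile, 0 without the trend in the moderation, 1 (psbM in place of psaB and ndhI) in a fit on the compared groups alone, and 0 to 2 without single arrays. In 35S-GSH1 it was 2, then 0 without the trend and 0 to 2 without single arrays, and over both genotypes 4, then 0 without the trend and 2 to 4 without single arrays. Without the trend 106 probe sets of 22746 passed over both genotypes, against 1728 with it. Over both temperatures the genotype count was 0, and 1 (atpE, limma adjusted p = 0.0457) with the filter, where it otherwise ran from 0.0230 to 0.962.

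The labels do not say that a replicate number marks a shared batch. Deviations from group means of arrays with the same number correlated at 0.01 to 0.06 between groups over all probe sets, but at 0.26 to 0.53 over the 43 genes in all 6 pairs of groups. With the replicate number as a block, as a hint from the data only, the counts were 4 in Col-0 (ndhD and atpA added, limma adjusted p = 0.0114 and 0.0149), 2 in 35S-GSH1, 8 over both genotypes (petA, atpA, atpB and atpE added, limma adjusted p = 0.0391, 0.0116, 0.0227 and 0.0394) and 3 for genotype over both temperatures (ndhD, atpE and psbI, limma adjusted p = 0.0193, 0.0230 and 0.0193).

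Medians moved by more than the replicate spread as follows, as ranges without single arrays. For 4 °C against 22 °C in Col-0 they ran from -0.23 to 0.36 for all members, 0.21 to 0.79 for photosystem I (0.26 with a pseudocount of 16) and -0.42 to 0.28 for cytochrome b6f. In 35S-GSH1 they ran from -0.24 to 0.20 for photosystem I, -0.31 to 0.10 for cytochrome b6f and -1.05 to 0.0520 for rbcL, and over both genotypes from -0.15 to 0.34 for photosystem I. For 35S-GSH1 against Col-0 at 4 °C they ran from -0.65 to -0.12 for all members, -0.85 to -0.42 for photosystem I and -0.56 to 0.15 for cytochrome b6f. At 22 °C they ran from -0.51 to 0.0525 for all members, -0.76 to 0.11 for photosystem II, -0.54 to 0.19 for cytochrome b6f and -0.48 to 0.62 for rbcL. For the interaction they ran from -0.39 to 0.12, for photosystem I from -0.43 to -0.0117, for photosystem II from -0.49 to 0.25, for cytochrome b6f from -0.41 to 0.31 and for rbcL from -0.70 to 0.40.

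Single genes changed sign over both genotypes: psaA was 0.0919 on the deposited scale, 0.00311 with a pseudocount of 16 and -0.41 to 0.33 without single arrays. psaC was 0.12 on the deposited scale, 0.00541 after centring and -0.38 to 0.34 without single arrays. psbC ran from -0.27 to 0.75, ndhF from -0.80 to 0.45 (0.00721 with a pseudocount of 16) and ndhH from -0.55 to 0.0689. In Col-0 petG ran from -1.03 to 0.37 and ndhF from -1.84 to 0.66. In 35S-GSH1 psaA ran from -1.33 to 0.15, petN from -1.56 to 0.25, atpB from -0.16 to 0.96 and rbcL from -1.05 to 0.0520. The interaction of psaB ran from -0.17 to 0.78. The cause of these moves was not tested beyond the fewer arrays in each.

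The deposited scale moved the median of all probe sets at 4 °C against 22 °C by 0.11 in 35S-GSH1. The share of calls over all probe sets that were higher at 4 °C was 48.2% in 35S-GSH1 as analysed, 66.4% on the deposited scale and 38.0% after centring. In Col-0 it was 49.4%, 61.9% and 42.4%, and over both genotypes 52.1%, 68.4% and 45.5%. A choice of 1 probe set per gene changed nothing, since each gene had 1.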
